A study of Homo sapiens with 6 samples.

Results

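The UGT1A genes of human chromosome 2 are read from separate first exons that splice to 1 common set of downstream exons. The 9 members, UGT1A1 and UGT1A3 to UGT1A10, were taken by gene name on chromosome 2 from 1 merged transcript assembly with 25211 gene names. They had 10 transcript models among 55083, since UGT1A6 had 2 and each of the other 8 genes had 1. All 10 carried the name of a RefSeq transcript and matched it as a reference transcript. Their positions are therefore those of the annotation and do not by themselves show that the cells transcribed these genes.

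The assembly belongs to a study of EndoC-βH1 cells, an established line of human beta cells, transduced by lentivirus with a short hairpin RNA against the promoter of INS, the insulin gene. Doxycycline turns the hairpin on. In 3 libraries (the INS-KD group) the hairpin was induced with doxycycline at 1 mg/mL for 7 days. The 3 Negative Control libraries received no doxycycline. Doxycycline and the hairpin therefore cannot be told apart, and all 6 libraries come from the same cell line. The assembly covers the whole series and has no value for a library or a group: of its 555595 exon lines, 0 had a number in the score column. Levels of UGT1A RNA, of INS or of beta cell markers, sequencing depth and any difference between the groups were therefore not analysed here. The values below are positions, lengths, counts of models and sequence identities, without replicates.

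UDP-glucuronosyltransferases are enzymes of the endoplasmic reticulum that attach glucuronic acid from UDP-glucuronic acid to bilirubin, hormones, bile acids and drugs, which makes them soluble enough to be excreted. In the UGT1A family, the N-terminal part of the protein comes from the own first exon and binds the substrate, while the C-terminal part comes from the shared exons and binds the sugar donor. The family is best known from liver, kidney and gut. UGT1A1 conjugates bilirubin, UGT1A3 takes bile acids and oestrogens, UGT1A4 takes amines, UGT1A6 takes small planar phenols such as serotonin, and UGT1A9 takes bulkier phenols. UGT1A7, UGT1A8 and UGT1A10 are known mainly from the gastrointestinal tract.

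The last 90 bases of each own first exon are shown because they carry both what the genes have in common and what tells them apart. They were read from the GRCh37 reference, plus strand, and all are coding. Capitals mark a base that differs from the most frequent base of the 9 genes at that place, counting from the splice junction. At 2 places no base was the most frequent, and all 9 are in capitals there.
UGT1A1, chr2:234669708-234669797: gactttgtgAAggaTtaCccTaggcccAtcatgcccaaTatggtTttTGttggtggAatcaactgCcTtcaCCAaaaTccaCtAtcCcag
UGT1A6, chr2:234602422-234602511: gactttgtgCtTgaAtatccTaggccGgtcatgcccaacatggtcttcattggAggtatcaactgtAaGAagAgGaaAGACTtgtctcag
UGT1A3, chr2:234638550-234638639: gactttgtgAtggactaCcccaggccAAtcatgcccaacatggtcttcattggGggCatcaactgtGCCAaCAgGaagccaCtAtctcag
UGT1A4, chr2:234628244-234628333: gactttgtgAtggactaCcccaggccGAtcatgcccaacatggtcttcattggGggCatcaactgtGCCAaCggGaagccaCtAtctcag
UGT1A5, chr2:234622415-234622504: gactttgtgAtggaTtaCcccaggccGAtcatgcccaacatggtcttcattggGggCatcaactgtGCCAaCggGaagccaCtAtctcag
UGT1A7, chr2:234591349-234591438: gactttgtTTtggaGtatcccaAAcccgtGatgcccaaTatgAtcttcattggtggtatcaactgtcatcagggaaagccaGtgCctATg
UGT1A8, chr2:234527119-234527208: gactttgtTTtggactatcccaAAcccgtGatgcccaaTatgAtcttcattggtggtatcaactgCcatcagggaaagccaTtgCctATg
UGT1A9, chr2:234581346-234581435: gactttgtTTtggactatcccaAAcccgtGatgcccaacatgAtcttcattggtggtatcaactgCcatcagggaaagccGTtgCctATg
UGT1A10, chr2:234545934-234546023: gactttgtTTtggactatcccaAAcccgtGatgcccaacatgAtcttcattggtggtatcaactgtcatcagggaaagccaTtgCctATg

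Of these 90 places, 52 held the same base in all 9 genes. UGT1A1 had the most capitals, 20, and UGT1A10 the fewest, 10. The other 7 genes had between 12 and 16. The most frequent base was taken from these same 9 genes. The counts thus depend on how many close relatives a gene has among them and do not rank the genes by divergence. The last codon is ATG (methionine) in UGT1A7 to UGT1A10 and CAG (glutamine) in the other 5 genes.

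The first shared exon, exon 2, is shown because all 10 models continue with it (GRCh37, chr2:234675680-234675811, plus strand). Capitals mark its first codon.
Exon 2: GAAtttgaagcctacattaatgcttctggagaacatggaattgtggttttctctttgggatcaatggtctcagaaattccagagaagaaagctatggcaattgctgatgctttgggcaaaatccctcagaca

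The 10 models formed 1 locus on chromosome 2, plus strand, from 234526291 to 234681951 on hg19, a span of 155661 bases. No model of another gene name belonged to it. In the order of the chromosome the own first exons were those of UGT1A8, UGT1A10, UGT1A9, UGT1A7, UGT1A6, UGT1A5, UGT1A4, UGT1A3 and UGT1A1. Gaps between neighbouring own first exons of the long models ran between 4933 and 34520 bases. The intron from the own exon to exon 2 was longest in UGT1A8, at 148471 bases, and shortest in UGT1A1, at 5882 bases. That of UGT1A8 therefore contained the own first exons of all 8 other genes, and that of UGT1A1 contained none.

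**Figure D1:**
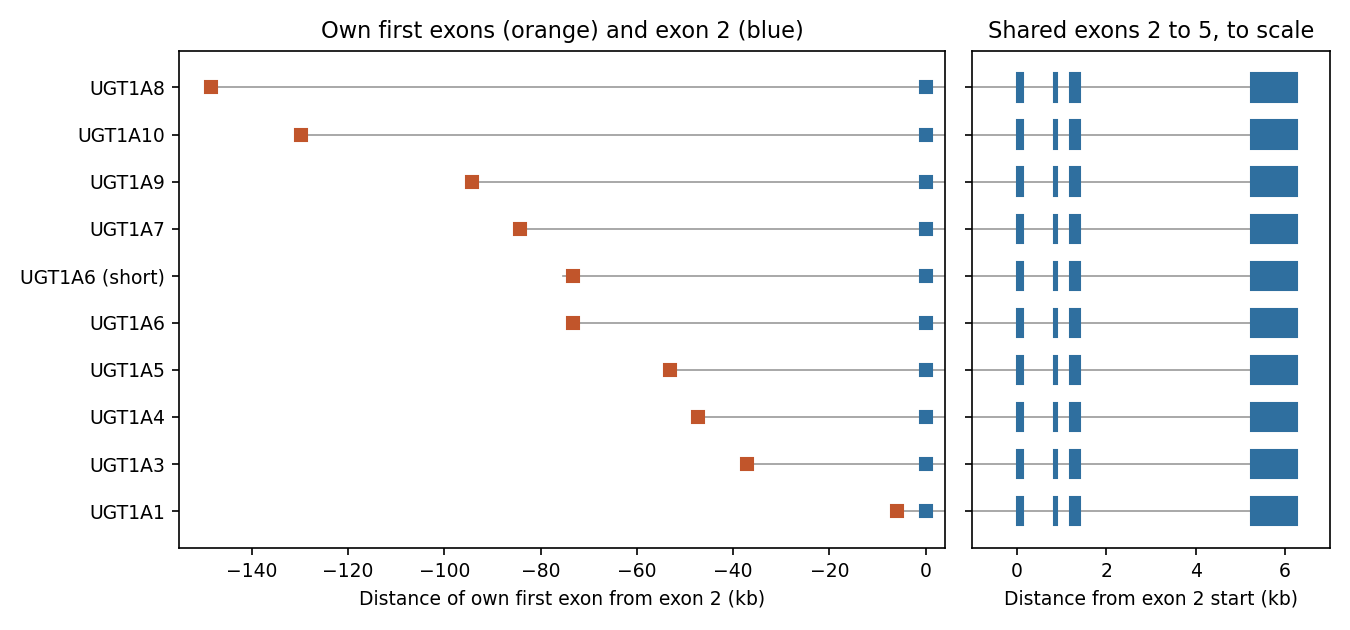
Left, the position of each UGT1A model's own exon that joins exon 2 (orange) against exon 2 (blue), in kb from the start of exon 2. Right, the shared exons to scale, enlarged on an axis that covers a shorter range. The introns run between 5882 bases in UGT1A1 and 148471 bases in UGT1A8, while the shared exons begin in the same places in all 10 models.

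Each model had its own start. The 10 models held 10 distinct first exons, 10 start site groups and 10 protein groups, and 0 start site groups held more than 1 UGT1A model. The first exon spanned 234526291 to 234527208 in UGT1A8 (918 bases), 234545123 to 234546023 in UGT1A10 (901 bases), 234580544 to 234581435 in UGT1A9 (892 bases) and 234590584 to 234591438 in UGT1A7 (855 bases). In the downstream part of the cluster it spanned 234621638 to 234622504 in UGT1A5 (867 bases), 234627438 to 234628333 in UGT1A4 (896 bases) and 234637773 to 234638639 in UGT1A3 (867 bases). In UGT1A1, the gene nearest to the shared exons, it spanned 234668919 to 234669797 (879 bases). All of these exons hold the start codon and coding sequence, and in UGT1A3, UGT1A5 and UGT1A7 the model began at the start codon itself, with no 5′ untranslated base. For these 3 genes the start in the file is therefore the start of the coding sequence rather than a mapped transcription start.

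UGT1A6 was the exception, with 2 starts. Its long model began at 234601512 with a single own exon of 1000 bases, 139 of them before the start codon. Its short model began upstream, at 234600321, with an exon of 146 bases that ended at 234600466, and joined the last 67 bases of the long model's first exon, 234602445 to 234602511. The intron between them, 1978 bases, began with GC and ended with AG, whereas the other 12 of the 13 distinct introns of the cluster were GT-AG. The longest reading frame was 265 amino acids in the short model, of which 20 came from its own exons, against 532 amino acids in the long model, of which 287 did. Both UGT1A6 models left the own exon at the same donor, so that the cluster had 9 donors to exon 2.

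The shared exons followed 1 pattern. Exons 2, 3 and 4 (234675680 to 234675811, 234676495 to 234676582 and 234676866 to 234677085; 132, 88 and 220 bases) were identical in start and end in all 9 genes and all 10 models. Exon 5, which holds the stop codon, began at 234680908 in every model but had 2 ends, 6 bases apart. It ended at 234681945 in 7 models (1038 bases) and at 234681951 in 3, those of UGT1A9, UGT1A10 and the long UGT1A6 model (1044 bases). With overlap in place of identity, 4 exons were common to all 9 genes. The introns between them measured 683, 283 and 3822 bases.

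Shared bases made up most of each transcript. In the long models the own exon was 36.6 to 40.3% of the spliced bases, with a median of 37.5%, and was lowest in UGT1A7 and highest in UGT1A6. In the short UGT1A6 model it was 12.6%, 213 of 1691 bases. Of the windows of 50 consecutive bases in UGT1A1, 1429 of 2308 (61.9%) lay wholly inside the shared exons and had the same sequence in the other 8 genes. Over the 9 long models this share ran between 58.7% in UGT1A6 and 62.6% in UGT1A7. A read that lies within the shared bases common to all models fits all 9 gene names equally. The last 6 bases of the longer exon 5 belong to the long UGT1A6 model and the models of UGT1A9 and UGT1A10 alone. GENCODE ends its transcripts that match the 9 long models all at 234681946, without this difference. Apart from these 6 bases the gene names differ in the own exon and its junction to exon 2.

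**Figure D2:**
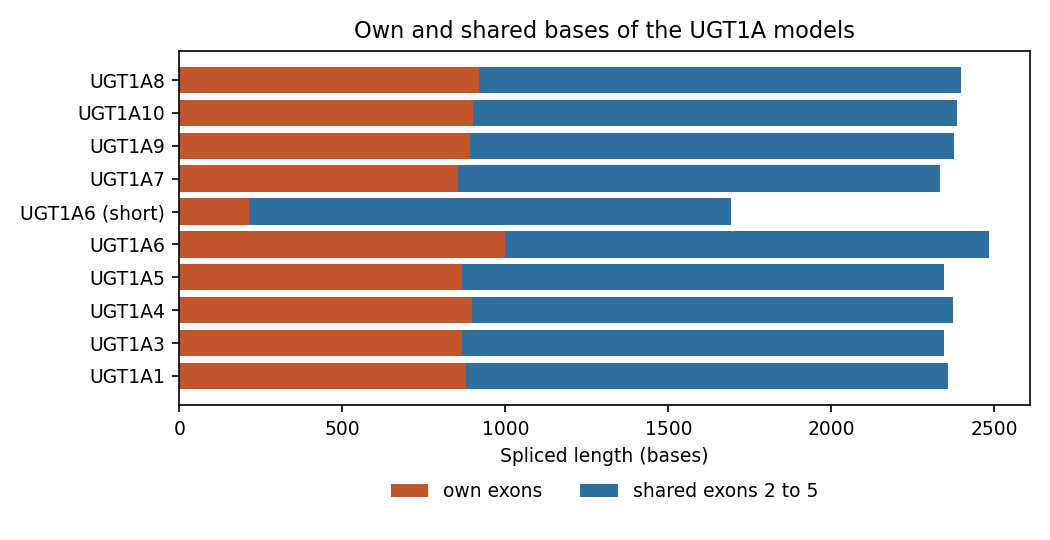
Spliced length of each UGT1A model in bases, split into own exons (orange) and shared exons 2 to 5 (blue), in chromosome order. The shared part is 1478 or 1484 bases in every model, and the own part runs between 213 bases in the short UGT1A6 model and 1000 bases in the long one.

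The coding frames met the shared exons in the same way in all 9 genes. The own coding part measured 855 bases in UGT1A7 to UGT1A10, 861 in UGT1A6, 864 in UGT1A1 and 867 in UGT1A3 to UGT1A5. Each is a whole number of codons, and exon 2 thus begins with a complete codon. The frame then continued for the same 245 amino acids in every gene, giving 530 amino acids in UGT1A7 to UGT1A10, 532 in UGT1A6, 533 in UGT1A1 and 534 in UGT1A3 to UGT1A5. The own exon thus encoded 53.8 to 54.1% of the protein in the long models.

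In the part encoded by the own exon, the genes fell into 2 groups of close relatives and 2 single genes. Amino acid identity was 87.4 to 90.5% over the 6 pairs among UGT1A7 to UGT1A10 (median 89.1%) and 87.5 to 90% over the 3 pairs among UGT1A3 to UGT1A5 (median 87.9%). The other 27 pairs ranged from 37.9 to 49.8%, with a median of 40.8%. UGT1A1 stood nearest to UGT1A3, UGT1A4 and UGT1A5, at 49.5, 48.8 and 49.8%. UGT1A6 had between 39.6 and 43.6% with the other 8 genes. Because the C-terminal part is common, identity over the whole frame was higher, 66.2 to 94.9% over all 36 pairs. Pairs share genes and are no independent observations, so no test was made. The groups were chosen after the identities were seen.

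**Figure D3:**
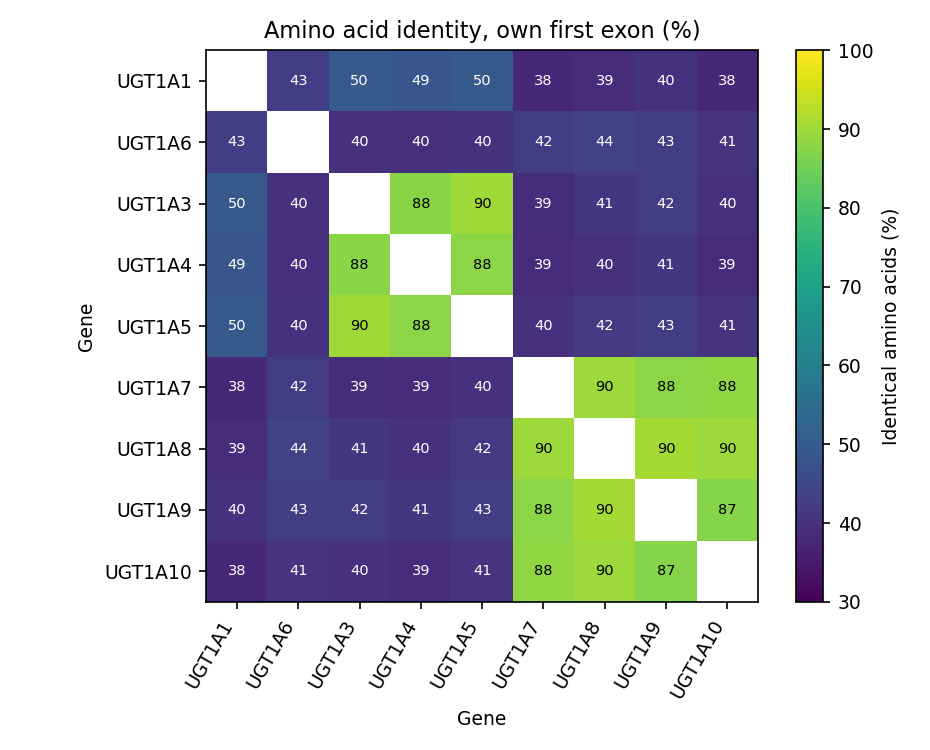
Amino acid identity in percent between the parts encoded by the own first exon, for every pair of the 9 genes in global alignments. UGT1A3 to UGT1A5 and UGT1A7 to UGT1A10 form 2 blocks of 87.4 to 90.5%, and all 27 other pairs lie at or below 49.8%.

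At the level of bases the same 2 groups appeared. Coding identity was 92.0 to 94.0% within UGT1A7 to UGT1A10, 93.2 to 94.1% within UGT1A3 to UGT1A5 and 51.6 to 61.2% in the other pairs. In a joint alignment of 867 columns, 241 (27.8%) were identical in all 9 genes, against 757 (87.3%) within UGT1A7 to UGT1A10 and 785 (90.5%) within UGT1A3 to UGT1A5. A larger group leaves fewer columns identical, so these shares describe each group and do not rank them. The differences were not spread evenly. Average pairwise identity over all 9 genes was lowest, 47.6%, in columns 301 to 360, where it was 80.8% within UGT1A7 to UGT1A10. Within UGT1A3 to UGT1A5 the lowest window was columns 241 to 300, at 81.1%. The highest value over all 9 genes, 84.7%, was in columns 781 to 840. In the last 27 columns, next to the junction with exon 2, it was 65.7%.

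**Figure D4:**
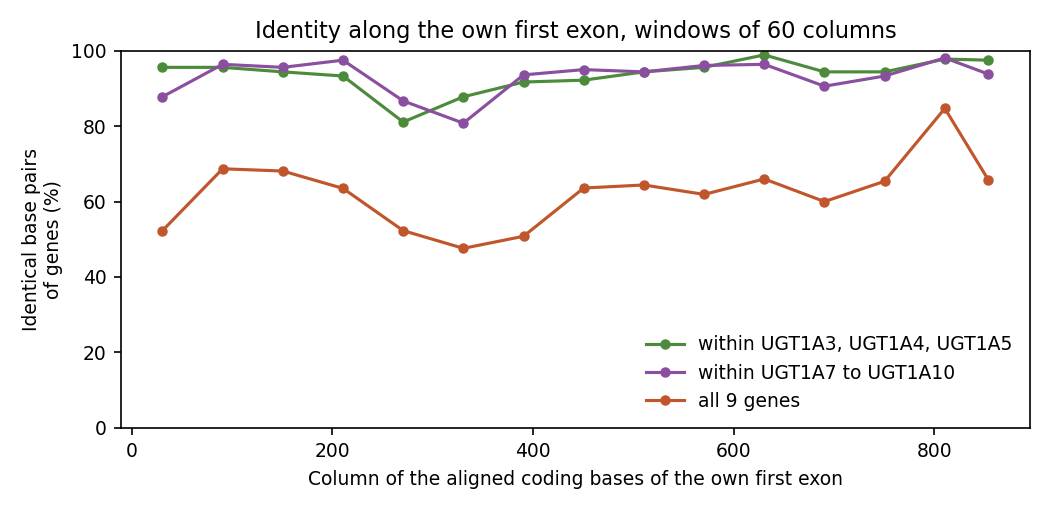
Average identity over pairs of genes, in percent, along the aligned coding bases of the own first exon in windows of 60 columns (the last has 27), for UGT1A3 to UGT1A5, for UGT1A7 to UGT1A10 and for all 9 genes. All 3 lines dip between columns 241 and 360, and the line over all 9 genes peaks at 84.7% in columns 781 to 840.

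The relatives within a group limit what short stretches can tell apart. All 830 windows of 50 bases in the UGT1A1 own exon and all 951 in the UGT1A6 one were found in no other own first exon. In the other genes the share was 90.1% in UGT1A3, 89.5% in UGT1A4, 87.0% in UGT1A5 and 91.9% in UGT1A7. It was lowest in UGT1A8, at 72.4%, with 82.0% in UGT1A9 and 80.5% in UGT1A10. With windows of 25 bases UGT1A8 fell to 44.6% and UGT1A1 stayed at 100%, and with windows of 100 bases UGT1A8 had 91.5%. Read length is not given in the sources used here. Matches had to be exact, so a read with a sequencing error or a variant is not covered by these shares.

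The donor sites followed the same groups. They are shown with 12 bases on either side of the exon end (GRCh37, plus strand), and capitals mark the first 6 intron bases.
UGT1A1, chr2:234669786-234669809: ccactatcccagGTGTGTattgga
UGT1A6, chr2:234602500-234602523: gacttgtctcagGTTGGTgggttt
UGT1A3, chr2:234638628-234638651: ccactatctcagGTCTGTattggt
UGT1A4, chr2:234628322-234628345: ccactatctcagGTCTGTattggt
UGT1A5, chr2:234622493-234622516: ccactatctcagGTCTGTattggt
UGT1A7, chr2:234591427-234591450: ccagtgcctatgGTAAGTtatctc
UGT1A8, chr2:234527197-234527220: ccattgcctatgGTAAGTcacctc
UGT1A9, chr2:234581424-234581447: ccgttgcctatgGTAAGTtatctc
UGT1A10, chr2:234546012-234546035: ccattgcctatgGTAAGTcacctc

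There were 4 different hexamers among the 9 donors. UGT1A7 to UGT1A10 all had GTAAGT, UGT1A3 to UGT1A5 all had GTCTGT, UGT1A1 had GTGTGT and UGT1A6 had GTTGGT. The first of these equals the usual consensus of the intron side of the human donor, GTAAGT, in 6 of 6 bases. Each of the other 3 equals it in 4. The exon side was not counted. Its last 3 bases are ATG in UGT1A7 to UGT1A10 and CAG in the other genes. The match over the intron bases alone therefore does not rank the donors. All of them splice to the same acceptor, whose last intron bases AG are in capitals here (GRCh37, chr2:234675640-234675689, plus strand), followed by 10 bases of exon 2.
Acceptor: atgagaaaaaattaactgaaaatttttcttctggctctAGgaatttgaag

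Upstream of the starts, 2 short motifs were searched on both strands, from 250 bases before to 50 after each model's start: TATAAA, the letters of a TATA box, and GCGTG, the core bound by the aryl hydrocarbon receptor AHR. The same windows were read at 30993 distinct reference starts of the assembly. In UGT1A3, UGT1A5 and UGT1A7 the model starts at the start codon, so the last 50 bases of the window are coding. GENCODE places the starts of these genes 85, 85 and 37 bases further upstream. TATAAA was present at 1 of the 10 UGT1A starts, that of UGT1A1, against 10.8% of all starts. That match was on the minus strand and began 110 bases before the start codon. Only the exact letters were searched, so a TATA box with other letters is not covered. GCGTG was present at 7, those of UGT1A3, UGT1A4, the short UGT1A6 model and UGT1A7 to UGT1A10, against 39.5%. The only match in UGT1A3 and the nearer one in UGT1A4 began 40 bases before the start codon. Both lie inside the transcript as GENCODE gives it. These letters do not show that a factor binds there, and the starts of related genes share sequence.

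In UGT1A7 to UGT1A10 a minus-strand GCGTG began 100 to 102 bases before the start codon, outside the models. It is shown in capitals as CACGC, as the plus strand reads, in the bases 120 to 81 before the start codon (GRCh37).
UGT1A7, chr2:234590464-234590503: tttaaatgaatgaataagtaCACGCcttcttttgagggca
UGT1A8, chr2:234526234-234526273: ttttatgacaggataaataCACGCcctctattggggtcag
UGT1A9, chr2:234580461-234580500: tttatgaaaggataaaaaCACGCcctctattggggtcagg
UGT1A10, chr2:234545049-234545088: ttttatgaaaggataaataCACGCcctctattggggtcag

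Joined models, which share splice junctions with a RefSeq transcript but not its whole intron chain, are the only models of the assembly that are not reference transcripts. The UGT1A locus had 0 of them, for all 9 gene names. In the whole file 2677 of 21516 gene names with a multi-exon reference transcript had one, 12.4%. Most gene names thus had none, as the 9 UGT1A names had. The locus held 10 reference transcripts, and among the 73 loci with exactly 10 in the file 58 had a joined model (79.5%, exact Clopper-Pearson 95% interval 68.4 to 88%). Copies of the same gene, such as those of AGER, CSF2RA and PTPN20B, count as separate loci here and below. The intervals treat them as independent. On chromosomes 1 to 22, X and Y alone, 52 of 67 such loci had a joined model (77.6%).

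The chains that a switch between reference transcripts could give were counted by following 1 reference transcript into an exon and leaving it along another. Joined models with an exon or junction absent from the reference fall outside this count. Over all 90 ordered pairs of the 10 UGT1A transcripts, such a switch gave 0 intron chains that the reference did not already hold, whether the exons had to be identical or only to overlap. The 73 loci with 10 reference transcripts had a median of 13 such possible chains, with a range of 0 to 90. Of the 8 loci with 0, the UGT1A locus among them, 1 had a joined model, and that was IP6K2, an inositol phosphate kinase gene, with 4. Of the 65 with at least 1 possible chain, 57 had a joined model (87.7%, interval 77.2 to 94.5%). Of all 9828 loci with 2 or more reference transcripts, 5851 had no possible chain, and 3.88% of these had a joined model. Of the 3977 with a possible chain, 65.2% had a joined model. At loci with 5 or more reference transcripts the shares were 17.1% of 322 without a possible chain and 73.3% of 1548 with one. The number of reference transcripts was not matched in these sets. UGT1A transcripts differ from one another before exon 2 alone in their introns. A joined model made by 1 such switch could not arise among them. Why the locus had 0 joined models was not tested, and the 0 is no measure of whether the cells used these genes.

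**Figure D5:**
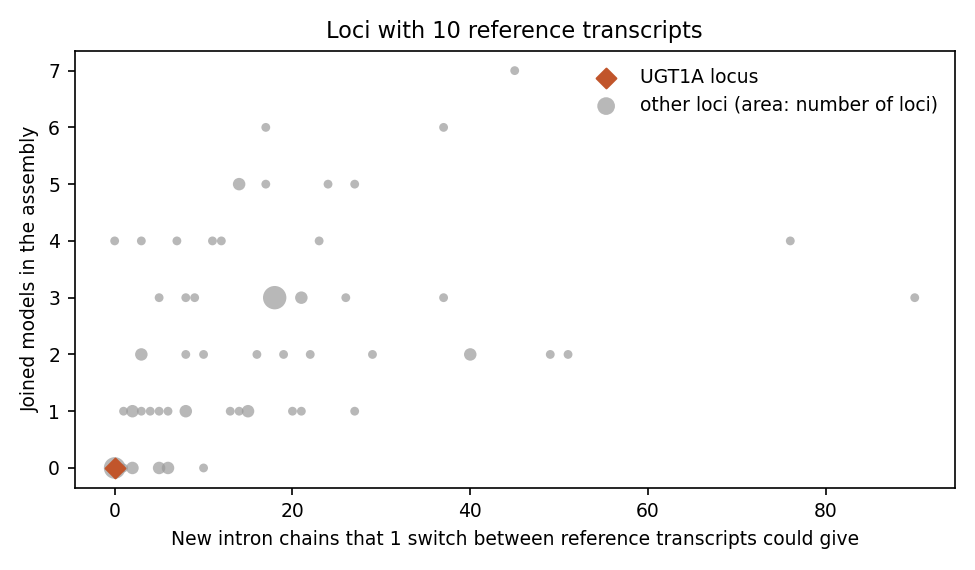
Each of the 73 loci with 10 reference transcripts, by the number of new intron chains that 1 switch between 2 of them could give (horizontal) and the number of joined models in the assembly (vertical). The area of a grey point is the number of loci; the UGT1A locus (orange diamond) lies at 0 on both axes, as do 6 of the 7 other loci without a possible chain.

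More than 1 gene name was held by 616 of the 26008 loci, 2.37%. With 9 names, the UGT1A locus was the fourth largest by gene names, and 3 loci held more. In 251 of the 616 (40.7%) every start site group had a single gene name, as in UGT1A. In 9 loci an exon that is nowhere a first exon was common to at least 3 gene names with first exons of their own. When at least 5 names had to share 1 exon, 3 remained: UGT1A and the protocadherin clusters PCDHA and PCDHG of chromosome 5, which encode adhesion proteins of neurons. The other 6 were 1 locus of GAGE genes, 1 of CT45 genes, 2 of NBPF genes and 2 of TBC1D3 genes, all families of near-identical copies. A start site group held more than 1 gene name in each of these 6 loci and in none of the first 3. Joined models numbered 0 in UGT1A, in both protocadherin clusters and at both TBC1D3 loci. In these 5 clusters no new chain was possible by a switch between reference transcripts. The other 4 had 1 to 3 joined models.

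UGT1A and the protocadherins had the same arrangement at different sizes. The first exon had a median of 892 bases in UGT1A, 2538 in the 15 PCDHA genes and 2430 in the 22 PCDHG genes. As a share of the spliced bases of each gene's longest multi-exon model, that was 37.5, 47.0 and 52.7%. The first intron ran between 5882 and 148471 bases in UGT1A, between 9617 and 190264 in PCDHA and between 3106 and 161701 in PCDHG. UGT1A models had 5 exons as a rule, against 4 in both protocadherin clusters. UGT1A had 0 models that end in the first exon, against 15 of 34 in PCDHA and 22 of 46 in PCDHG.

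Among the other 13 UDP-glycosyltransferase genes listed, UGT2A1 and UGT2A2 on chromosome 4 were the only pair with identical exons, 5 in number. UGT2A2 entered them from an own first exon of 744 bases across an intron of 39504 bases, and each gene had its own start site group. Their locus had 4 reference transcripts and 1 joined model, at UGT2A1. A switch between reference transcripts could give 4 new chains there. UGT2A3, UGT2B4, UGT2B7, UGT2B10, UGT2B11, UGT2B15, UGT2B17, UGT2B28, UGT3A1, UGT3A2 and UGT8 shared no exon with another listed gene. Of the 13, 2 had a joined model (15.4%), UGT2A1 and UGT3A1 with 1 each. The share over all gene names was 12.4%, and 13 genes are too few for a comparison.

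In the rest of the pathway the counts were small. Of 8 genes for the supply and fate of glucuronides, 2 had a joined model (25%): GUSB, the beta-glucuronidase that cleaves glucuronides, with 3, and ABCG2, an efflux transporter, with 1. UGP2 and UGDH, which make UDP-glucuronic acid, SLC35D1 and SLC35B1, carriers of the SLC35 family, and the efflux pumps ABCC2 and ABCC3 had none. Of the 6 genes from heme to bilirubin, HMOX1, HMOX2, BLVRA, BLVRB, SLCO1B1 and SLCO1B3, 0 had one. Of 8 regulators, 3 had one (37.5%): ARNT, the partner of AHR, with 5, and the nuclear receptors NR1I3 with 4 and NR1I2 with 1. AHR, PPARA, NFE2L2, HNF4A and CDX2 had none. These lists were chosen for their place in the pathway. With 6 to 13 genes each, their shares are too coarse to be set against the 12.4% of all gene names.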

How the data were processed

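RNA of 6 EndoC-βH1 libraries, 3 with the INS-promoter hairpin induced and 3 negative controls by their titles, was sequenced, and 1 merged assembly of the series was analysed. The authors deposited the first and last base of every exon, counted from 1, with text tags for gene name, locus, start site group and protein group. Per the submitters' processing notes, TopHat2, Cufflinks and the hg19 build were used; the sources used here state no version or setting. The file carries no count or coverage, so depth is unknown and no test between groups was made.

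Models were rebuilt in Python 3.11.15 with scipy 1.17.1. A model of class = was called a reference transcript and one of class j a joined model. Sequences were read from GRCh37, where 98.5% of the 16719 distinct reference introns of chromosome 2 were GT-AG. Frames run from ATG to a stop. Own coding parts were aligned in pairs with biopython 1.88 (amino acids: BLOSUM62, gap open 11, extend 1; bases: match 5, mismatch -4, gap open 25, extend 5) and jointly with MAFFT 7.526. Chains were compared with GENCODE release 44 on GRCh37. Chain and cluster counting was tested on simulated loci. Members, lists, motifs and alternatives were chosen with earlier results of these data known. Some items of the lists and motifs are not reported here. Named genes were the 9 members, listed genes and the clusters with a shared exon.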

Additional observations from a re-analysis of the deposited data

How the results depend on the processing

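No paired analysis was possible because the assembly carries no value per library, so no replicate could be left out either. Of 22 alternatives over 13 results, 18 stayed within 1.5 times the count, or within the interval or spread of the main value. The share of gene names with a joined model was 13.5% over genes whose reference has at least 3 exons, against 12.4%. Clusters with a shared exon numbered 3 in place of 9 when at least 5 gene names had to share it, which removes loci by construction. Median amino acid identity was 42.9% with gap open 5 and extend 2, against 41.9% with open 11 and extend 1. The share of loci of equal size with a joined model was 72.6 to 80.6% over 4 alternatives, against 79.5%. Chosen after seeing the data were 7: models with a RefSeq name, donors to exon 2, the main chromosomes alone, the UGT1A locus left out, lighter nucleotide gap penalties (56.4% against 53.7%) and both other window lengths. The median share of windows found in no other own exon was 61% at 25 bases and 100% at 100 bases, against 89.5% at 50. The file gives no depth, which limits all statements to structure.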

Other observations

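GENCODE lists 20 transcripts of the 9 UGT1A genes on GRCh37. The intron chains of all 10 models of the assembly were among them, and 10 GENCODE transcripts had a chain that the assembly lacked. Of these, 3 (of UGT1A1, UGT1A6 and UGT1A10) held exon 2 and ended in another last exon, which begins at 234678177, between exons 4 and 5. The assembly held no model with that exon. Because the 10 models carry RefSeq names, this is a comparison of RefSeq with GENCODE. It does not show which transcripts the libraries held. Of the other 7, 5 had no whole exon 2, and 4 of those belonged to UGT1A6 and 1 to UGT1A7. GENCODE placed the start of the matching transcript 85 bases upstream of the model in UGT1A3 and UGT1A5, 56 in UGT1A4, 37 in UGT1A7, 29 in UGT1A10, 12 in UGT1A8, 3 in UGT1A1 and 68 in the short UGT1A6 model. It was the same in UGT1A9 and lay 24 bases downstream in the long UGT1A6 model.

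GENCODE also lists 4 first-exon pseudogenes of the family on chromosome 2: UGT1A12P (234494085 to 234494937), UGT1A11P (234512199 to 234513047), UGT1A13P (234556572 to 234557672) and UGT1A2P (234655860 to 234656725). UGT1A12P and UGT1A11P lie upstream of UGT1A8, UGT1A13P between UGT1A10 and UGT1A9, and UGT1A2P between UGT1A3 and UGT1A1. None of the 4 names was among the 9 of the assembly that begin with UGT1A. Counting the whole region with 50000 bases on either side, 79.6% of the 50-base windows of the UGT1A5 own exon occurred once, against 87.0% when the own exons alone were searched. For UGT1A4 the shares were 80.3 and 89.5%.

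Other genes of the assembly lay inside the cluster. DNAJB3 (234651396 to 234652661), a heat shock protein family gene, and LOC100286922 (234662962 to 234663991) ran on the minus strand within the introns of 8 of the 9 genes, all but UGT1A1. MROH2A, on the plus strand, began at 234684325, 2374 bases beyond the end of exon 5. Of the 8 multi-exon genes among the listed neighbours, 1 (12.5%) had a joined model, ATG16L1, an autophagy gene, with 1. SAG, DGKD, USP40, MROH2A, HJURP, TRPM8 and SPP2 had none. The share over all gene names was 12.4%, and 8 genes are too few for a comparison.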
